A study of Mus musculus with 32 samples.

Results

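Red blood cells carry hemoglobin, which needs globin chains and heme, inside a membrane held in shape by a spectrin skeleton. Genes for these components were followed through 8 fractions of mouse bone marrow at 2 ages. The list held 33 symbols, chosen by name but with earlier results of these data known. It held the alpha-globin genes Hba-a1 and Hba-a2 with the globin chaperone gene Ahsp, 8 heme synthesis enzymes, and carriers of iron and mitochondrial substrates. It also held membrane skeleton proteins, membrane and blood group proteins, and the carbonic anhydrases Car1 and Car2. Of the 33 symbols, 32 had a row among the 24421 genes of the count table. Ahsp had no row and was not analysed here, and Epb42 was listed under its older symbol Epb4.2.

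RNA sequencing was performed on hematopoietic stem cells (HSCs), the multipotent progenitors MPP1, MPP2, MPP3 and MPP4, progenitors of granulocytes and macrophages (GMPs), the progenitors shared by megakaryocytes and red cells (MEPs), and lymphoid progenitors (CLPs). Cells came from the marrow of female C57BL/6 mice at 10 weeks (Young) or 20 months (Aged), with 2 libraries in each of the 16 groups. No transgene or treatment was named for any group. HSCs and MPPs were sorted as lineage-negative, Sca-1+ and c-kit+ cells: HSCs were CD34- CD150+ CD48- Flt3-, MPP1 CD34+ CD150+ CD48- Flt3-, MPP2 CD34+ CD150+ CD48+ Flt3-, MPP3 CD34+ CD150- CD48+ Flt3- and MPP4 CD34+ CD150- CD48+ Flt3+. GMPs were Sca-1- c-kit+ with Fc gamma receptor and CD34, MEPs were Sca-1- c-kit+ without either, and CLPs were IL-7 receptor-positive with low Sca-1 and c-kit. The lineage antibodies in all these sorts included Ter-119, an antigen of late erythroblasts and red cells. The study describes its duplicates both as sorted from pooled marrow and as independent, so p-values may cover the spread between these libraries and not that between mice.

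Total counts per library were 11237384 to 17723245, and levels are given as CPM, counts scaled to the library total. A library without a count for a gene allows up to 3 counts, or 0.169 to 0.267 CPM depending on the library, and this floor covers counting error alone. The labels of the MEP and GMP fractions were read against regulators. Gata1, a master regulator of the erythroid lineage, stood at 398 and 426 CPM in Young MEPs and at 503 and 505 CPM in Aged MEPs, against 8.68 and 9.59 CPM in Young GMPs and 4.86 and 4.77 CPM in Aged GMPs.

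In the erythroid lineage, Gata1 and Klf1 switch on most of the genes studied here as progenitors mature. Heme is built in a chain of enzyme steps that begins and ends in the mitochondrion. Alas1 encodes the first enzyme in most tissues, and Alas2 encodes the erythroid form of that enzyme. Iron enters erythroid precursors as transferrin through the receptor Tfrc. Beneath the membrane, spectrin is anchored by ankyrin and protein 4.2 to the anion exchanger Slc4a1 (band 3), and Rh proteins sit in the same complex.

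Hba-a1 (chr11:32283511-32284465, plus strand) and Hba-a2 (chr11:32296489-32297298, plus strand, GRCm38) encode alpha-globin. Their coding sequences were both 429 bases long and 99.77% identical in the reference transcripts. The single difference was C381T, with the base of Hba-a1 first and positions counted from 1 at the first base of the start codon. It is in capitals in bases 351 to 411, which are shown because they hold the only coding base that can tell the transcripts apart.
Hba-a1: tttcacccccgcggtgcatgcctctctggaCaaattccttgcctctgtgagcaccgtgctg
Hba-a2: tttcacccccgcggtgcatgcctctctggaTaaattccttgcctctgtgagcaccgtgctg

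Promoter windows of RefSeq (GRCm38.p6, 250 bases before to 50 bases after a gene start) were found for 24 of the listed genes, in 28 windows. They were read on both strands for AGATAA and TGATAA, forms of the GATA motif that differ in their first base, and for CCNCNCCC, a Klf1-type motif. AGATAA or TGATAA was present in 12 of the 28 windows (42.9%), each of a different gene, against 18.6% of all 32851 windows. The shares were 25% against 11.2% for AGATAA alone, 25% against 9.05% for TGATAA alone and 71.4% against 49.5% for CCNCNCCC. A match is a description of letters, not of a bound site. Among genes that fell in both Aged MPP2 and Aged MPP3, Epb42 had an AGATAA match, while Tspo2, Sptb, Add2 and Aqp1 had neither form. Stretches upstream of 5 gene starts are shown, with GATA matches of either strand in capitals. Of these genes, 4 (Rhd, Kel, Rhag and Ermap) fell together in Aged MPP2 and MPP3. Alas2 fell there as well, but was lowest in MEPs among the Young fractions.
Rhd, chr4:134864436-134864535, plus strand: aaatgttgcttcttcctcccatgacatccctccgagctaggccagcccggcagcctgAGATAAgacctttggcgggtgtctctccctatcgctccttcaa
Kel, chr6:41704326-41704425, minus strand: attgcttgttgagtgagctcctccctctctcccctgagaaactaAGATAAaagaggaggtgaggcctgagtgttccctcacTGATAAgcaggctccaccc
Rhag, chr17:40811049-40811148, plus strand: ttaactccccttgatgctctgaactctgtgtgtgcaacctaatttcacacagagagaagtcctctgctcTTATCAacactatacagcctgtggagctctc
Ermap, chr4:119189996-119190095, minus strand: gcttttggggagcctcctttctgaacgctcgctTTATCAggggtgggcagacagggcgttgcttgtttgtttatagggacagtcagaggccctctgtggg
Alas2, chrX:150547317-150547404, plus strand: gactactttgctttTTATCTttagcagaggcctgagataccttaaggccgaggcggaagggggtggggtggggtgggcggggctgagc

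The listed genes were first ordered by level across the Young fractions. Young MEPs had the highest mean for 26 of the 32 genes, and for 14 of these the mean was over 10 times that of the next fraction. The exceptions were Hba-a1, Hba-a2 and Alas2, highest in Young CLPs, Alas1, highest in Young GMPs, and Slc4a1 and Tmod1, highest in Young MPP2. For Hba-a1, Tmod1, Slc25a37 and Slc4a1 the libraries of the highest fraction overlapped those of the next. The levels of Slc4a1 were 54.7 and 51.3 CPM in Young MPP2, 52.6 and 52.0 CPM in Young MPP3 and 43.1 and 56.0 CPM in Young MEPs. Per kilobase of exons, Car2 stood highest in Young MEPs (2753 CPM per kb), followed by Car1 (2661 CPM per kb), and Tmod1 stood lowest (0.648 CPM per kb).

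**Figure D1:**
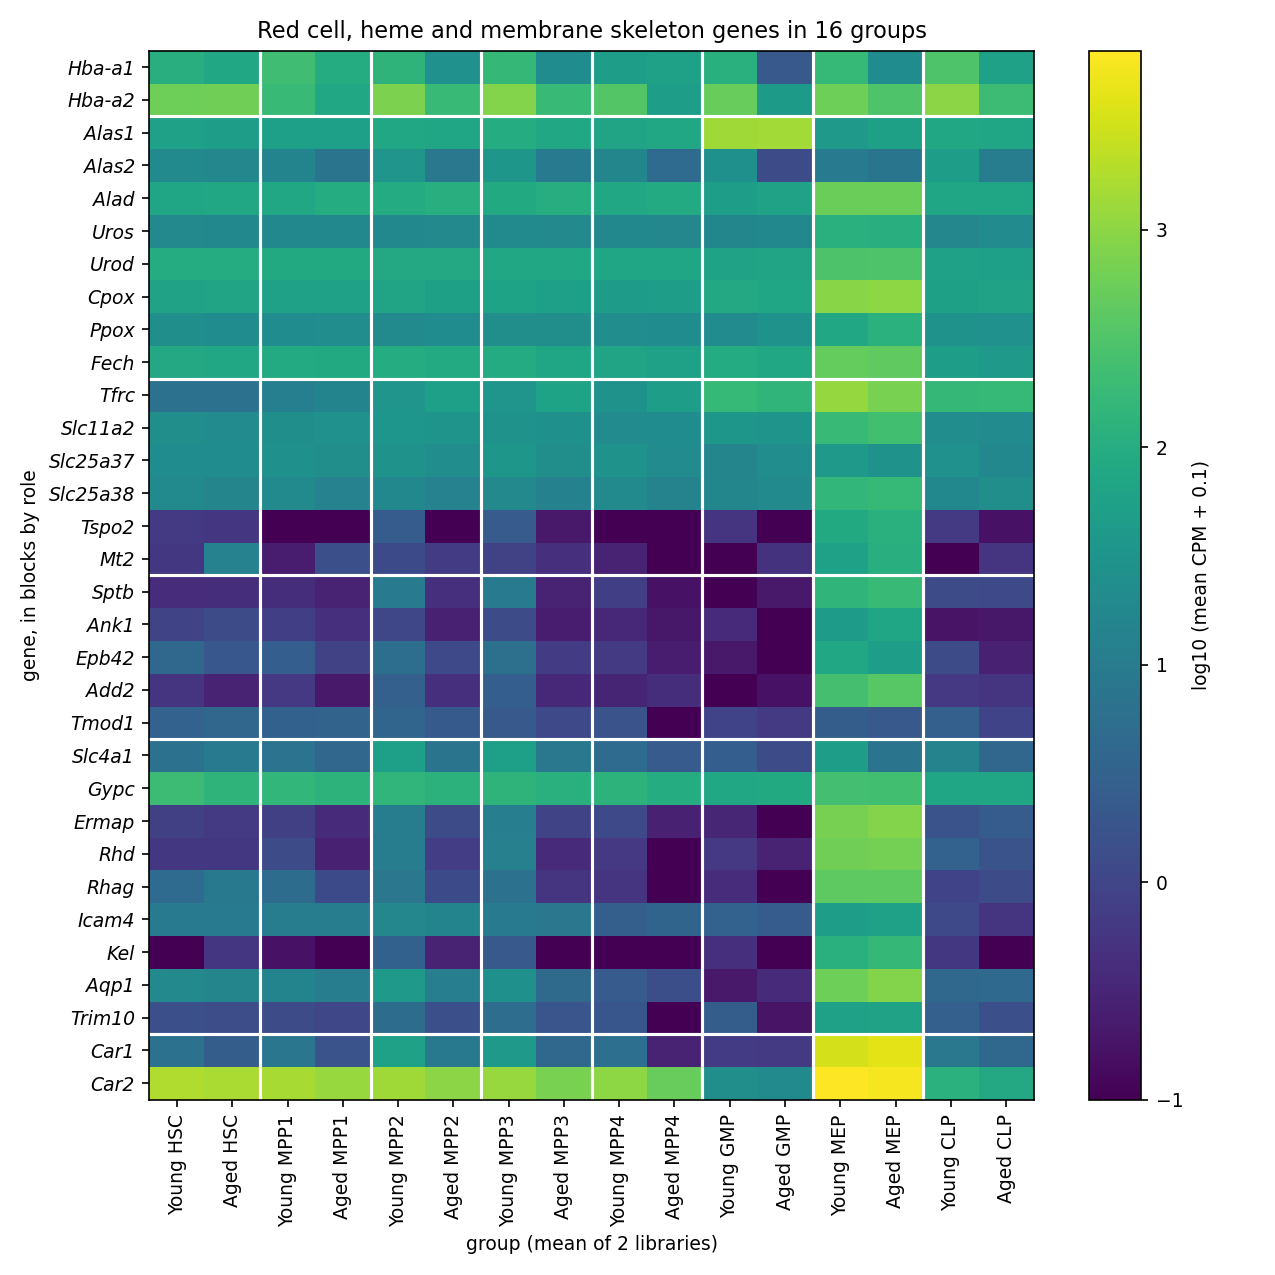
Heatmap of 32 genes (vertical axis, in blocks by role) in 16 groups (horizontal axis, Young and Aged side by side in each fraction), with color for log10 of the mean CPM of 2 libraries plus 0.1. Young MEPs had the highest level for 26 of the 32 genes, while Alas1 stood out in GMPs and Hba-a1, Hba-a2 and Alas2 were present in every fraction.

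To measure how far MEPs differed from the fraction next to them in the sort, Young MEPs were compared with Young GMPs. Of the 32 genes, 27 were higher and 2 were lower in MEPs (edgeR quasi-likelihood test, adjusted p under 0.01), where 22.6% of all 14154 genes tested were higher and 27.9% were lower. The median log2 difference was 3.51 for the listed genes and 0.00 for all genes. Car1, the carbonic anhydrase of the red cell cytoplasm, was at 3293 and 3348 CPM in Young MEPs and at 1.27 and 0 CPM in Young GMPs. Ermap, an erythroid membrane protein of the butyrophilin type, was at 648 and 732 CPM in MEPs and at 0 and 0.451 CPM in GMPs. Rhd, an Rh blood group protein, was at 592 and 613 CPM against 0.460 and 0.621 CPM. In each of the 3 genes the libraries of MEPs and GMPs were far apart.

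Against groups without a count, Sptb (beta-spectrin) was at least 828-fold, Add2 (beta-adducin) at least 1496-fold and Mt2 (a metal-binding metallothionein) at least 339-fold higher in Young MEPs than in Young GMPs. Heme synthesis enzymes differed less, with Cpox 3.30 ± 0.07 (log2, SE) higher and Ppox 1.63 ± 0.12 higher in MEPs. The housekeeping enzyme Alas1 went the other way, at 42.6 and 39.9 CPM in Young MEPs against 1339 and 1341 CPM in Young GMPs (log2 difference -5.26 ± 0.08, adjusted p 3.96e-22). The erythroid enzyme Alas2 was also lower in MEPs, at 7.46 and 12.1 CPM against 23.3 and 30.4 CPM (log2 difference -1.70 ± 0.47, adjusted p 0.00336). This call was lost without Young GMP replicate 2 or Young MEP replicate 1 (adjusted p up to 0.0627), and when GC content and length were offset (0.0269). Hba-a1, Hba-a2 and Tmod1 did not pass the test.

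Young MPP2 and Young MPP3 are separated in the sort by CD150 alone. None of the 32 genes differed between them in edgeR's quasi-likelihood test, where 1.33% of all genes were higher and 1.06% were lower in MPP2. At an unadjusted p under 0.05 there were 4 genes, DESeq2's Wald test called 2, edgeR with DESeq2 size factors called 1 and edgeR on only the libraries of both groups called 2. The median log2 difference was 0.03 for the listed genes and -0.02 for all genes. Rhd was at 10.1 and 11.8 CPM in Young MPP2 and at 11.7 and 13.5 CPM in Young MPP3. Car1 was at 57.0 and 58.0 CPM in Young MPP2 and at 40.1 and 41.0 CPM in Young MPP3. Among 10 erythroid regulators on a separate list, Gata1 (2.35 ± 0.18, log2) and Gfi1b, a repressor that works with it (0.80 ± 0.14), were higher in Young MPP2, as was Epor, the erythropoietin receptor (1.40 ± 0.28), and Lmo2 was lower (-0.27 ± 0.06).

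Against their level in Young MEPs, the listed genes stood at unequal shares. Ermap stood at 1.60% of its Young MEP level in Young MPP2 and 1.69% in Young MPP3, Rhd at 1.82% and 2.09%, Rhag at 1.90% and 1.56%, and Car1 at 1.73% and 1.22%. Of the skeleton and its anchors, Add2 stood at 1.12% and 1.04%, Ank1 at 2.17% and 2.51%, Sptb at 6.97% and 6.60% and Epb42 (protein 4.2) at 7.31% and 7.83%. Among membrane proteins, Aqp1, a water channel, stood at 6.85% and 4.47%, and Icam4 at 33.8% and 18.5%. Slc4a1 (107% and 106%) and Alas2 (335% and 360%) stood at or above their MEP level in both. So the listed genes did not hold 1 common ratio to MEPs in either fraction.

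Aged MPP2 and MPP3 were next compared with their Young counterparts, since most of the age differences in the list were found there. In MPP2, 13 of the 32 genes fell and 1 rose, where 3.31% of all genes were lower and 4.49% were higher. In MPP3, 15 fell and 1 rose, where 5.79% of all genes were lower and 8.14% were higher. The median log2 difference was -1.27 in MPP2 and -1.23 in MPP3, against -0.02 and -0.04 for all genes. The 13 genes that fell in MPP2 all fell in MPP3 as well, where Alas1 and Fech, the enzyme that inserts iron into heme, fell in addition. The call of Alas1 was lost whichever MPP3 library was left out (adjusted p up to 0.0824), and that of Fech without Young MPP3 replicate 1 or 2 or Aged MPP3 replicate 1 (up to 0.0124). Both were also lost with only the libraries compared and when GC content and length were offset (adjusted p up to 0.0812 for Alas1 and 0.220 for Fech). Of all calls in MPP3, 58.4% were higher, against 48.8% with DESeq2 size factors. In sorted fractions of many cells, fewer cells of a type and less RNA per cell cannot be told apart.

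Of the 9 membrane and blood group genes, 6 fell in each fraction. Rhd was at 10.1 and 11.8 CPM in Young and 0.775 and 0.542 CPM in Aged MPP2 (log2 difference -3.99 ± 0.40, adjusted p 2.21e-06), and at 11.7 and 13.5 CPM against 0.207 and 0.375 CPM in MPP3 (-5.36 ± 0.47, adjusted p 1.99e-07). Rhag, the glycoprotein that carries Rh proteins to the surface, was at 8.19 and 7.94 CPM in Young and 0.915 and 1.29 CPM in Aged MPP2 (-2.81 ± 0.33), and at 7.56 and 5.66 CPM against 0.345 and 0.525 CPM in MPP3 (-3.87 ± 0.41). No Aged library reached a Young one for either gene.

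Ermap went from 11.1 and 11 CPM in Young to 1.48 and 1.02 CPM in Aged MPP2 (-3.09 ± 0.32), and from 11.9 and 11.4 CPM to 0.483 and 1.28 CPM in MPP3 (-3.69 ± 0.34). Aqp1, the water channel of the red cell membrane, was at 42.2 and 38.1 CPM in Young and 11.5 and 11.2 CPM in Aged MPP2 (-1.77 ± 0.23), and at 28.1 and 24.4 CPM against 3.38 and 5.70 CPM in MPP3 (-2.49 ± 0.27). In Aged MPP2 and MPP3, Aqp1 kept a higher level than Rhd, Rhag and Ermap. Kel, the Kell blood group protease, had 77 counts in Young and 6 in Aged MPP2, a ratio of 14.5 (95% interval 6.36 to 40.7, counting error only). In MPP3 it was at 1.93 and 2.30 CPM in Young and without a count in Aged libraries, at least 9.78-fold lower. These 5 genes passed the test in both fractions whichever library was left out.

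Of the 5 genes of the membrane skeleton, 3 fell in each fraction. Sptb went from 10.3 and 9.45 CPM in Young to 0.282 and 0.406 CPM in Aged MPP2 (-4.75 ± 0.56, adjusted p 1.28e-05), and from 10.4 and 8.29 CPM to 0.414 and 0 CPM in MPP3 (-5.33 ± 0.62, adjusted p 4.29e-06). Epb42 was at 5.30 and 5.75 CPM in Young and 1.06 and 1.08 CPM in Aged MPP2 (-2.31 ± 0.43), and at 6.82 and 5.01 CPM against 0.552 and 0.600 CPM in MPP3 (-3.30 ± 0.48). Add2 was at 1.93 and 3.78 CPM in Young and 0.211 and 0.542 CPM in Aged MPP2 (-2.84 ± 0.66), and at 1.93 and 3.37 CPM against 0.483 and 0 CPM in MPP3 (-3.29 ± 0.74). Young and Aged libraries did not overlap for any of the 3 genes, while Ank1 (ankyrin) and Tmod1, which caps actin filaments, did not pass the test. The loss of a library ended the call of Epb42 in MPP2 in 3 of 4 fits (adjusted p up to 0.0198), and that of Add2 in 3 of 4 fits in MPP2 (up to 0.104) and 2 of 4 in MPP3 (up to 0.0467).

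Car1 went from 57.0 and 58.0 CPM in Young to 7.53 and 9.82 CPM in Aged MPP2 (-2.67 ± 0.48, adjusted p 0.000674), and from 40.1 and 41.0 CPM to 4.00 and 3.83 CPM in MPP3 (-3.32 ± 0.54, adjusted p 0.000131). Car2, a carbonic anhydrase of many cell types, moved much less, from 1349 and 1386 CPM to 972 and 985 CPM in MPP2 (-0.43 ± 0.11) and from 1166 and 1202 CPM to 697 and 744 CPM in MPP3 (-0.67 ± 0.11). Tspo2, a membrane protein of erythroid cells, was at 2.97 and 1.82 CPM in Young MPP2. It was without a count in Aged MPP2, at least 11.55-fold lower. In MPP3 it had 59 counts in Young and 3 in Aged libraries, a ratio of 21.3 (95% interval 6.95 to 106, counting error only). DESeq2's Wald test did not call Car1 in MPP2 (adjusted p 0.0779) or MPP3 (0.0154), and the edgeR call in MPP2 was lost without Aged MPP2 replicate 1 or 2 (adjusted p up to 0.0224).

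Slc4a1 was at 54.7 and 51.3 CPM in Young and 6.69 and 7.18 CPM in Aged MPP2 (-2.88 ± 0.62, adjusted p 0.00295), and at 52.6 and 52.0 CPM against 8.41 and 8.33 CPM in MPP3 (-2.59 ± 0.61, adjusted p 0.00343). Alas2 was at 30.4 and 35.0 CPM in Young and 8.59 and 8.60 CPM in Aged MPP2 (-1.88 ± 0.47, adjusted p 0.00948), and at 35.3 and 35.1 CPM against 9.72 and 8.63 CPM in MPP3 (-1.89 ± 0.47, adjusted p 0.00562). In both genes the libraries of an age lay close together. The calls of Slc4a1 and Alas2 in both fractions, and of Car2 in MPP2, were lost whichever library was left out, at adjusted p up to 0.0435 for Slc4a1, 0.0797 for Alas2 and 0.0806 for Car2.

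Tfrc was the only listed gene that rose in these fractions. It was at 35.5 and 31.2 CPM in Young and 51.9 and 52.5 CPM in Aged MPP2 (0.70 ± 0.17, adjusted p 0.00655), and at 35.3 and 30.5 CPM against 63.9 and 61.8 CPM in MPP3 (0.98 ± 0.17, adjusted p 0.000202). The call in MPP2 was lost whichever library was left out (adjusted p up to 0.0864). With 1 library left out, 8 genes were called in MPP2 without Young replicate 2 and 7 without Aged replicate 1 or 2, and 11 or 12 in MPP3 whichever library was missing. The drop in MPP2 did not differ from the mean drop of MPP1, MPP3 and MPP4 for any of the 32 genes in edgeR's quasi-likelihood test, where 0.0212% of all genes had a higher and 0.00707% a lower difference. At an unadjusted p under 0.05 there was 1 gene, and DESeq2 also called 0.

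**Figure D2:**
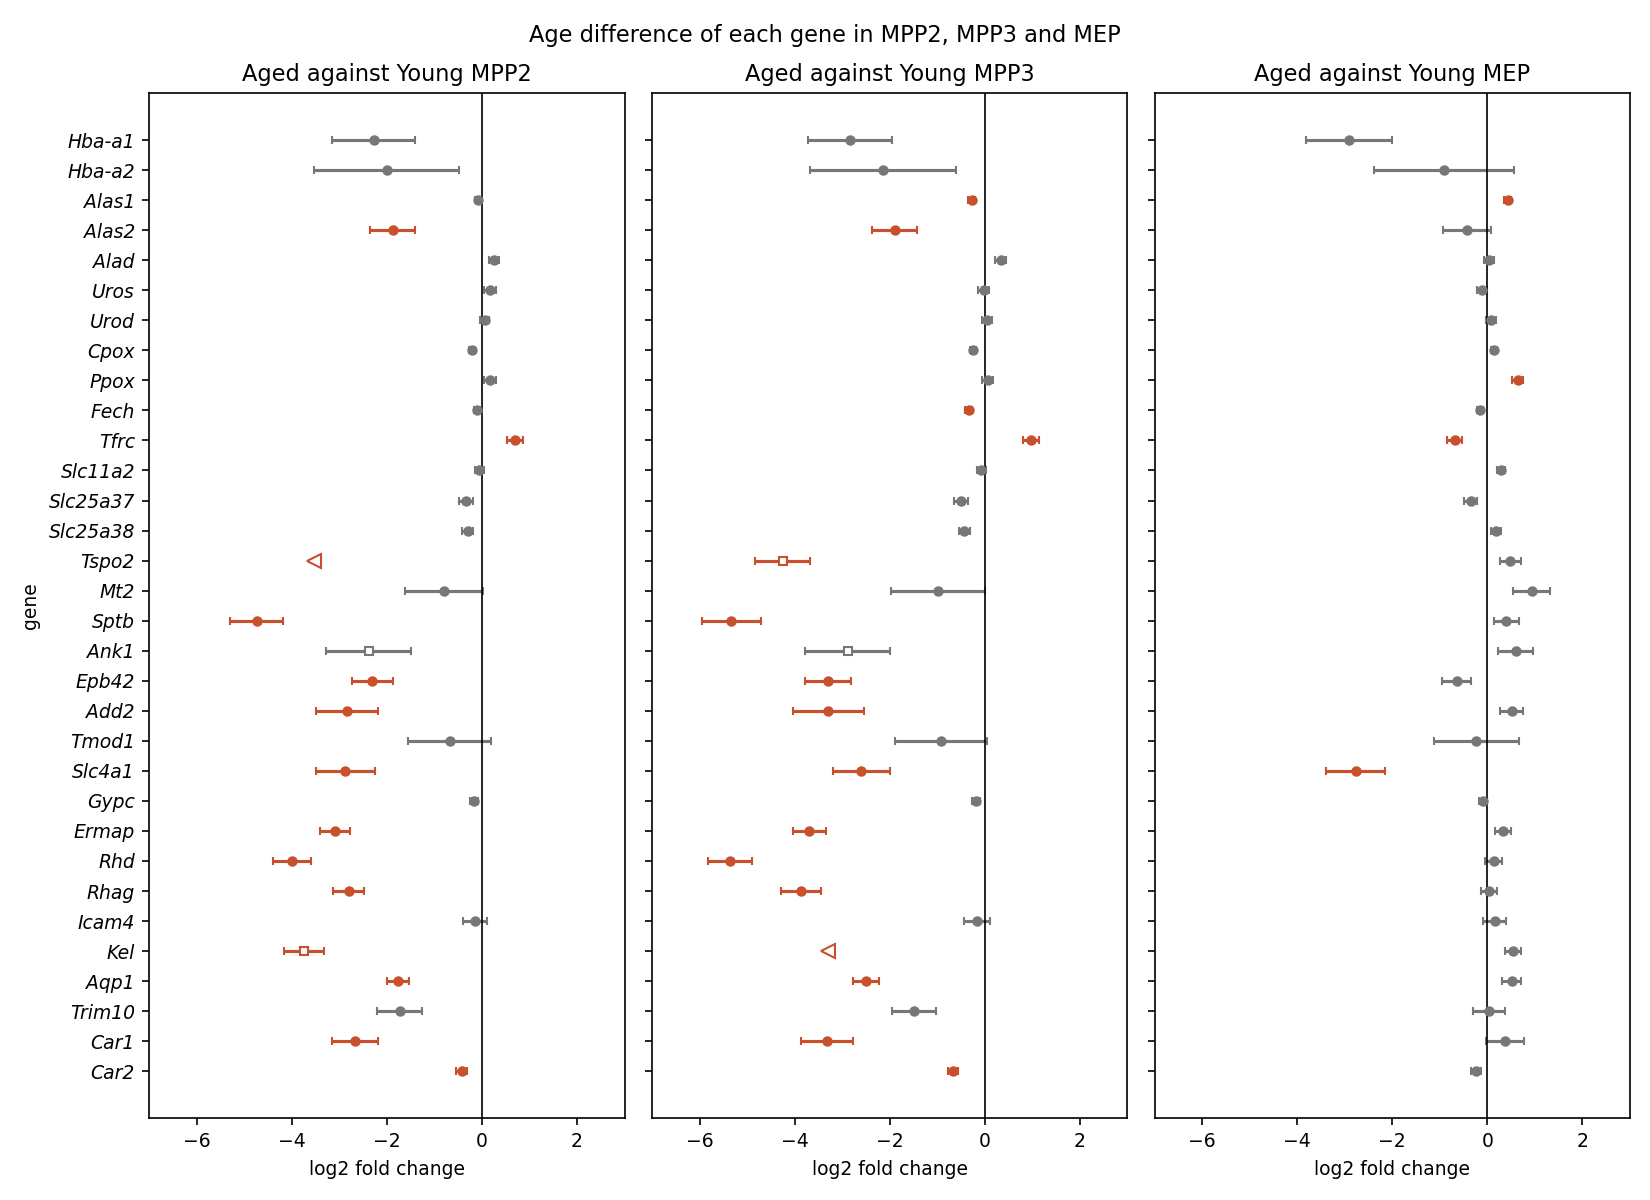
Log2 difference of Aged from Young cells (horizontal axis, with SE) for 32 genes (vertical axis) in MPP2, MPP3 and MEPs. Orange marks genes that passed the test, open triangles mark bounds against a group without a count and open squares mark genes with 1 to 3 counts on 1 side. The 13 genes that fell in MPP2 also fell in MPP3, and of these Slc4a1 alone fell in MEPs.

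Other genes of the erythroid pathway were read from 3 further lists. Of 10 erythroid regulators, 4 fell in Aged MPP2, among them Klf1 (-1.48 ± 0.24), Gfi1b (-0.66 ± 0.14) and Gata1 (-0.64 ± 0.16), and 6 fell in MPP3, among them Klf1 (-2.77 ± 0.31), Gata1 (-1.62 ± 0.24) and Epor (-1.46 ± 0.38). Of 19 other red cell and membrane genes, 5 fell and 1 rose in each of the fractions. Among those that fell was Cldn13, a claudin of erythroid cells (-2.78 ± 0.45 in MPP2 and -2.71 ± 0.44 in MPP3). Of 24 other heme and iron genes, 4 fell and 1 rose in MPP2, and 3 fell and 2 rose in MPP3, with a median log2 difference of 0.01 and 0.02. The median of the heme and iron genes beyond the listed ones thus stood near that of all genes. Of all genes, 3.31% were lower and 4.49% were higher in MPP2, and 5.79% were lower and 8.14% were higher in MPP3.

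Markers of other cells moved in the same fractions. Of 15 macrophage markers, 7 fell in Aged MPP2 and 11 in Aged MPP3. Their summed level was 373 and 373 CPM in Young and 117 and 123 CPM in Aged MPP2, and 325 and 340 CPM in Young and 101 and 112 CPM in Aged MPP3. None of the 15 was without a count in both libraries of any of these 4 groups. They include Vcam1, Hmox1 and Slc40a1, genes of the macrophages that take up red cells. Of 12 granulocyte markers, 6 fell in MPP2 and 7 in MPP3, and of 12 megakaryocyte markers, 4 fell in MPP2 and 6 in MPP3. Of 9 basophil and mast cell markers, 3 fell and 1 rose in MPP2, and 4 fell and 1 rose in MPP3. Of 10 B lineage markers, 1 fell in MPP2 and 3 in MPP3. Their part in the differences of the listed genes was not tested.

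Within MEPs, where most of the list is highest, few listed genes passed the test for age. In all, 2 genes rose and 2 fell, where 9.08% of all genes were higher and 11.7% were lower, and the median log2 difference was 0.10 against 0.00 for all genes. The group mean was higher in Aged MEPs for 20 genes and lower for 12. The count of 4 calls was 9 in DESeq2's Wald test, 9 with only the libraries compared and 6 with a replicate block (7 with the GC and length offsets added). Of the genes that fell in both MPP2 and MPP3, only Slc4a1 passed the test here. Rhd was at 592 and 613 CPM in Young and 655 and 663 CPM in Aged MEPs (0.13 ± 0.19). Rhag was at 425 and 424 CPM against 434 and 430 CPM (0.03 ± 0.17), and Sptb at 118 and 165 CPM against 162 and 210 CPM (0.40 ± 0.27). Epb42 was lower in Aged MEPs, at 76.9 and 74.2 CPM against 48.4 and 48.0 CPM, but was not called. The summed level of the 32 genes was 18228 and 18218 CPM in Young and 18217 and 18202 CPM in Aged MEPs. Car1 and Car2 held most of this sum and moved in opposite directions, though neither passed the test. The mean of Car1 went from 3321 to 4291 CPM and that of Car2 from 6669 to 5645 CPM. Like sums thus do not show that single genes kept their levels.

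Tfrc went from 1190 and 1069 CPM in Young to 655 and 744 CPM in Aged MEPs (-0.69 ± 0.15, adjusted p 0.00146). Ppox, the enzyme of the step before Fech, rose from 75.0 and 80.3 CPM to 117 and 125 CPM (0.64 ± 0.11, adjusted p 0.000174), and Alas1 rose from 42.6 and 39.9 CPM to 56.2 and 54.6 CPM (0.43 ± 0.07, adjusted p 7.07e-05). Slc4a1 fell from 43.1 and 56.0 CPM to 4.18 and 10.2 CPM (-2.77 ± 0.62, adjusted p 0.00166). Young and Aged libraries did not overlap for any of the 4 genes. Without Aged MEP replicate 1, Slc4a1 (adjusted p 0.0347) and Tfrc lost their calls and 2 genes remained called, and Tfrc also lost its call without Young MEP replicate 1 and when GC content and gene length were offset (adjusted p up to 0.0562). Of 10 B lineage markers, 8 fell in Aged MEPs. The sum of all 10 was 236 and 231 CPM in Young and 2.31 and 3.05 CPM in Aged libraries. Of the 15 macrophage markers 9 fell. The sum of all 15 went from 221 and 232 CPM to 178 and 176 CPM. Most of it lay on markers that were not called. The highest of the 9 in Young MEPs, Axl, went from a mean of 6.43 CPM to 0.936 CPM. Neither Aged MEP library held a count for 8 of the 15 macrophage markers, among them C1qa, Fcna and Hmox1, and neither Young one for 2. The part of these cells in the differences above was not tested.

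**Figure D3:**
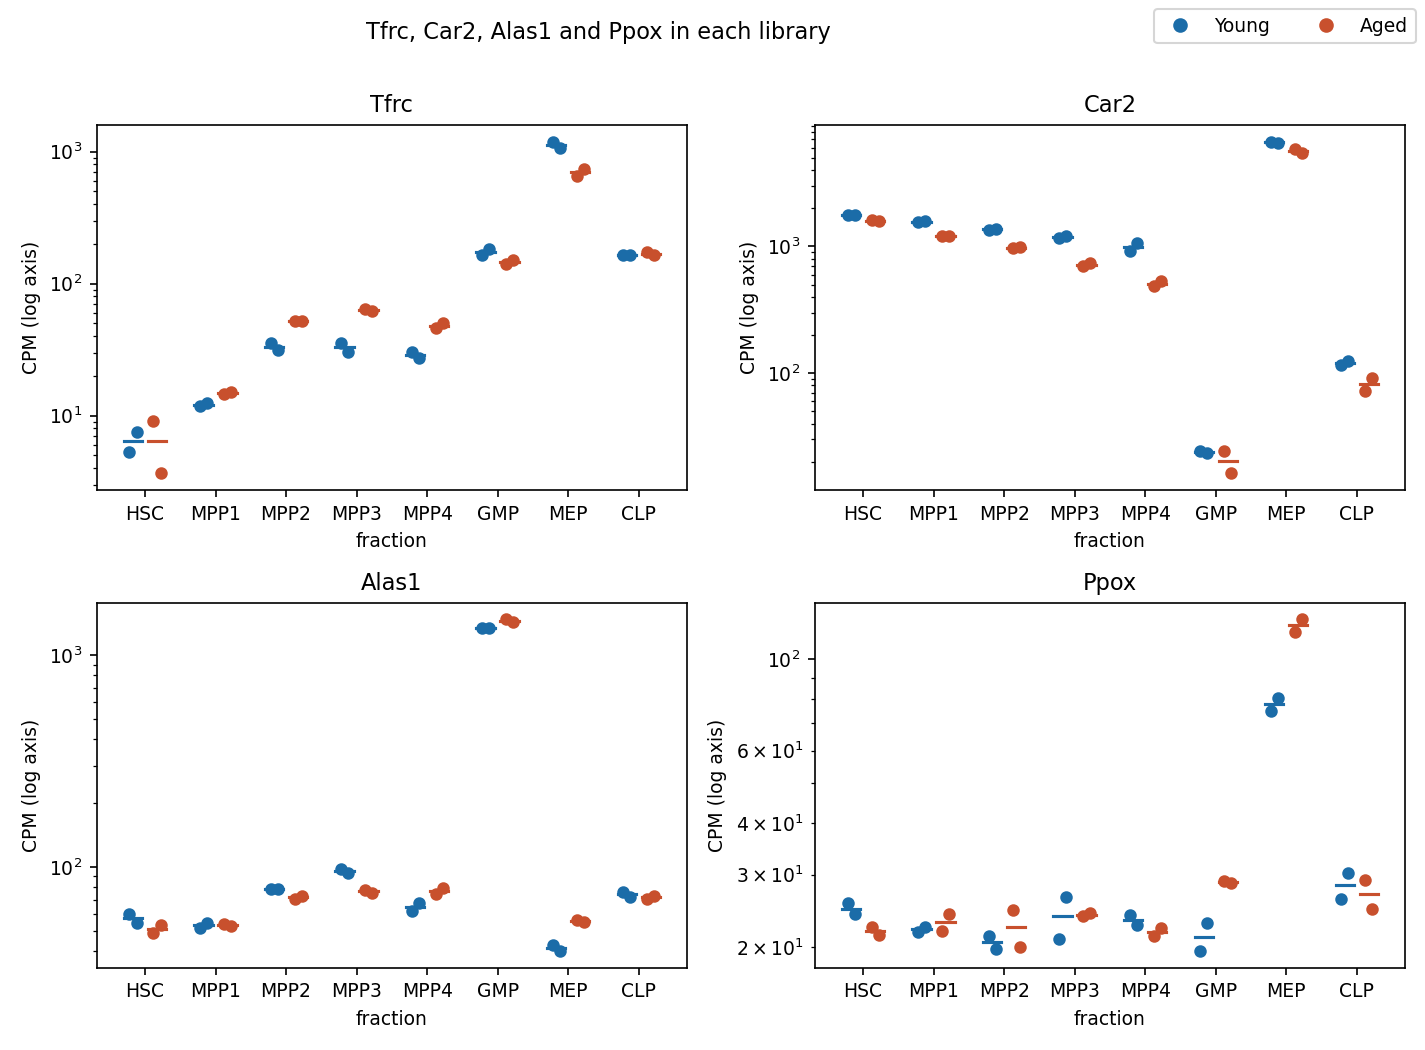
Levels of Tfrc, Car2, Alas1 and Ppox (CPM, log axis) in each fraction (horizontal axis), with a point for each library and a bar for the mean of 2. Tfrc was higher in Aged than Young MPP2, MPP3 and MPP4 and lower in Aged MEPs, and Alas1 was at 1339 CPM or more in GMPs and at 97.6 CPM or less elsewhere.

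The age difference in MEPs was set against the mean age difference of the other 7 fractions. It was higher for 8 of the listed genes and lower for 1, where 6.78% of all genes had a higher and 10.8% a lower difference. The gene with the lower difference was Tfrc, which fell in Aged MEPs and rose in 3 of the MPP fractions. The genes with a higher difference were Alas1, Ppox, Slc11a2 (an iron transporter), Ermap, Rhd, Rhag, Trim10 (a ring finger protein of erythroid cells) and Car1. For Ermap, Rhd, Rhag and Trim10 at least 1 Aged group outside MEPs was without a count, so the size of the fitted difference depends on the prior count of the fit and is no measure of fold.

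The alpha-globin genes had another pattern, in which MEPs did not stand highest among the fractions at either age. Because their coding sequences share nearly all bases, their counts were summed. The untranslated parts of the transcripts were not compared. In 28 libraries between 74.6% and 99.4% of the sum lay on Hba-a2, while in Young MPP1 replicate 1, Aged MPP1 replicate 2, Aged MPP4 replicate 2 and Aged CLP replicate 2 between 0.297% and 1.48% did. Hba-a2 alone was thus at 1.13 and 363 CPM in Young MPP1, while the sum was 380 and 426 CPM. The split between the genes is uncertain in every library, and fits of the genes taken singly rest on it.

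In Young cells the summed level was 674 and 713 CPM in HSCs, 380 and 426 CPM in MPP1, 840 and 939 CPM in MPP2, 1012 and 985 CPM in MPP3 and 346 and 435 CPM in MPP4. It was 652 and 578 CPM in Young GMPs, 762 and 740 CPM in Young MEPs and 1246 and 1281 CPM in Young CLPs. CLPs were highest, MPP4 and MPP1 overlapped as the lowest, and Young MEPs stood between GMPs and MPP2. In Aged cells it was 576 and 792 CPM in HSCs, 178 and 175 CPM in MPP1, 215 and 200 CPM in MPP2, 215 and 196 CPM in MPP3 and 107 and 104 CPM in MPP4. It was 65.5 and 24.4 CPM in Aged GMPs, 328 and 336 CPM in Aged MEPs and 455 and 67.7 CPM in Aged CLPs, where the libraries lay far apart. Aged libraries were below Young ones in each fraction but HSCs, where they overlapped.

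With both genes summed before the fit, a choice made after seeing the data, alpha-globin fell in Aged MPP2 (-2.05 ± 0.48, adjusted p 0.00552), MPP3 (-2.23 ± 0.48, adjusted p 0.00177), MPP4 (-1.80 ± 0.48, adjusted p 0.0077), GMPs (-3.83 ± 0.52, adjusted p 1.34e-05) and CLPs (-2.24 ± 0.48, adjusted p 0.00225). It did not pass the test in MPP1 (-1.15 ± 0.47, adjusted p 0.119), MEPs (-1.17 ± 0.47, adjusted p 0.0585) or HSCs (0.03 ± 0.46, adjusted p 1). Fitted singly, Hba-a1 fell in Aged GMPs alone, from 108 and 126 CPM to 4.03 and 0.149 CPM (-5.87 ± 1.19, adjusted p 0.000783), a call lost without Aged GMP replicate 2 (adjusted p 0.0189), and Hba-a2 fell in none.

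Alas2 was read beside alpha-globin in the same libraries. It was at 20.3 and 20.0 CPM in Young and 14.6 and 19.7 CPM in Aged HSCs, at 14.6 and 14.9 CPM against 6.62 and 7.43 CPM in MPP1, and at 14.8 and 17.3 CPM against 5.12 and 4.40 CPM in MPP4. In GMPs it went from 23.3 and 30.4 CPM to 1.67 and 0.745 CPM (-4.52 ± 0.62, adjusted p 1.29e-05) and in CLPs from 52.6 and 50.2 CPM to 19.1 and 1.93 CPM (-2.26 ± 0.47, adjusted p 0.00165). In MEPs it was at 7.46 and 12.1 CPM in Young and 6.67 and 7.83 CPM in Aged libraries. Outside MEPs, the alpha-globin sum was 19.0 to 35.7 times the level of Alas2 over the 14 Young libraries (median 27.2) and 20.96 to 40.1 times over the 14 Aged libraries (median 24.4). In MEPs it was 61.1 and 102 times in Young and 42.9 and 49.2 times in Aged libraries.

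Slc4a1 did not keep such a ratio in Young cells. Outside MPP2, MPP3 and MEPs it was at 6.04 and 6.40 CPM in Young and 6.10 and 12 CPM in Aged HSCs, 6.70 and 6.73 CPM against 4.08 and 3.58 CPM in MPP1, and 4.69 and 4.81 CPM against 2.15 and 2.53 CPM in MPP4. It was at 3.22 and 2.20 CPM in Young and 2.20 and 0.298 CPM in Aged GMPs, and at 12.3 and 15.7 CPM in Young and 7.49 and 0 CPM in Aged CLPs. Its level over that of Alas2 ranged from 0.0725 to 1.80 in Young libraries outside MEPs and was 4.63 and 5.78 in Young MEPs. In Aged libraries it was 0 to 1.32 outside MEPs and 0.627 and 1.31 in MEPs, which overlap. The part of carried-over red cell RNA in these levels was not tested.

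**Figure D4:**
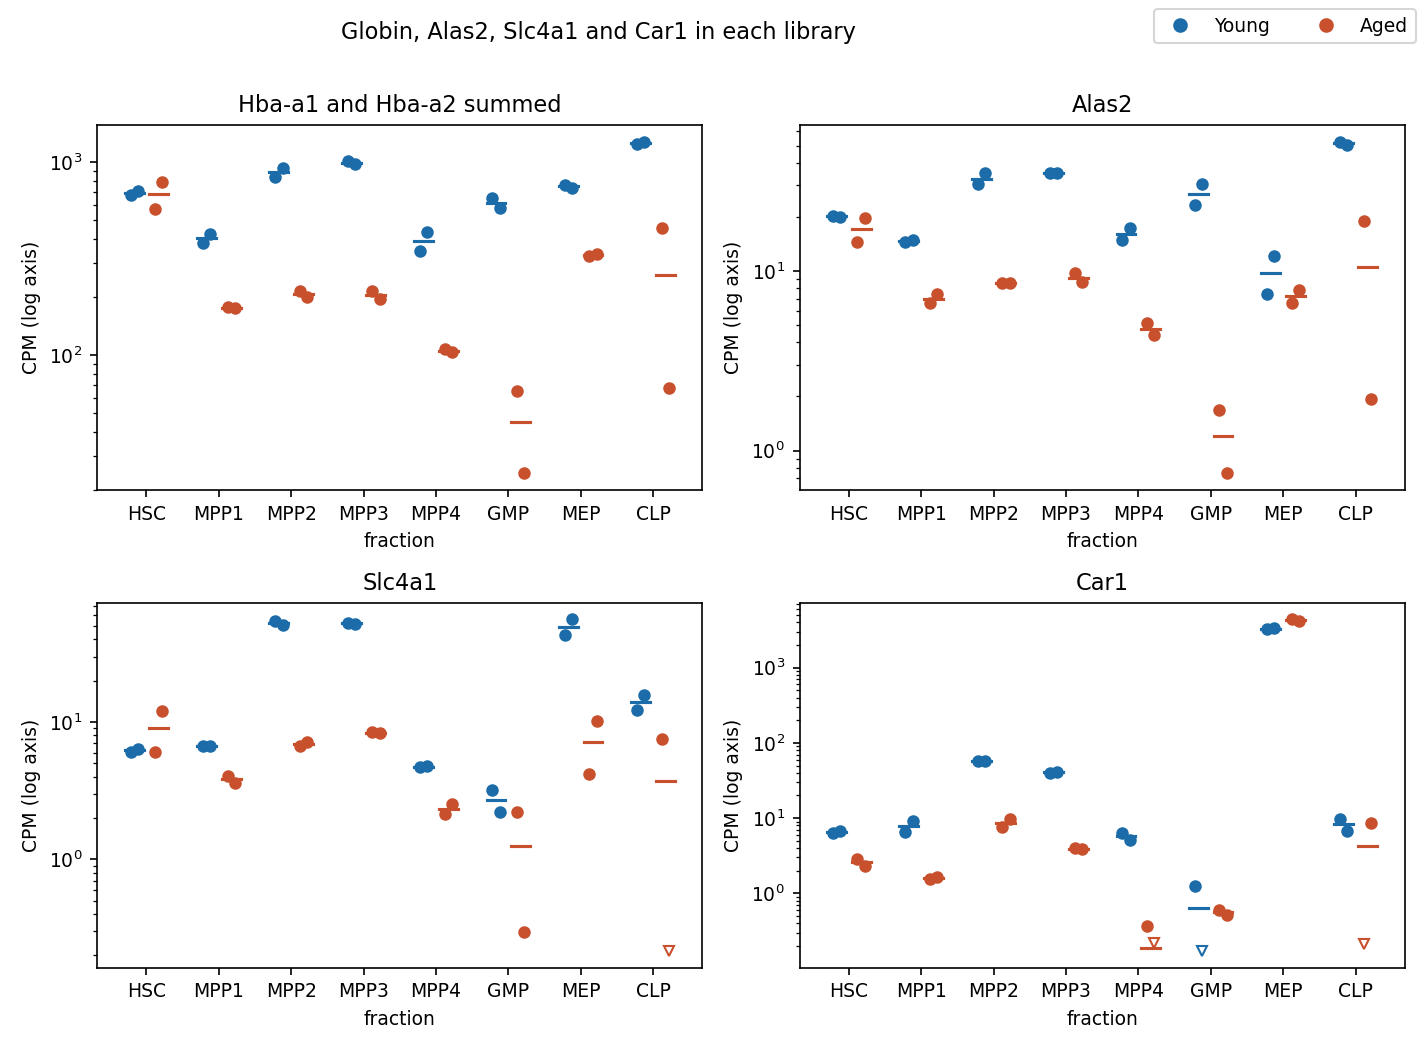
Levels of the alpha-globin sum, Alas2, Slc4a1 and Car1 (CPM, log axis) in each fraction (horizontal axis), with a point for each library, a bar for the mean of 2 and an open triangle at the 3-count floor for a library without a count. Alpha-globin and Alas2 were present in all Young fractions and lowest in Aged GMPs, whereas Car1 was at 3293 CPM or more in MEPs and at 58.0 CPM or less elsewhere.

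The remaining fractions held few age differences in the list. In MPP4, 2 genes rose and 4 fell, where 10.3% of all genes were higher and 6.27% were lower (62.2% of calls were higher, against 52.0% with DESeq2 size factors), with a median log2 difference of -0.37 against -0.02. Car1 was at 6.34 and 5.05 CPM in Young and 0.371 and 0 CPM in Aged MPP4 (-4.82 ± 1.17, adjusted p 0.00401). Trim10 was at 1.78 and 2.00 CPM in Young MPP4 and without a count in Aged MPP4, at least 8.63-fold lower. Car2 fell from 916 and 1061 CPM to 490 and 531 CPM (-0.87 ± 0.11) and Tfrc rose from 30.3 and 27.3 CPM to 45.8 and 50.2 CPM (0.82 ± 0.17). Gypc, glycophorin C, fell by 0.35 and Alas1 rose by 0.34 on the log2 scale. The calls of Car1, Tfrc, Gypc and Alas1 did not hold in every fit with a library left out (adjusted p up to 0.0590 for Car1, 0.0183 for Tfrc, 0.0807 for Gypc and 0.0268 for Alas1), and without Aged MPP4 replicate 2 there were 2 calls. The macrophage markers fell here too, with 10 of 15 lower. The sums of all 15 were 177 and 188 CPM in Young and 77.5 and 78.7 CPM in Aged MPP4. The part of these markers was not tested.

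In GMPs no listed gene rose and 7 fell, where 9.93% of all genes were higher and 8.97% were lower, with a median log2 difference of -0.30 against 0.00. Beside Hba-a1 and Alas2, Trim10 had 89 counts in Young and 2 in Aged GMPs, a ratio of 33.7 (95% interval 9.06 to 283, counting error only). Tspo2 was at 0.460 and 0.451 CPM and Kel at 0.460 and 0.226 CPM in Young GMPs, both without a count in Aged GMPs, at least 2.02-fold and at least 1.52-fold lower. Fech fell by 0.34 and Cpox by 0.29 on the log2 scale. Of the 15 macrophage markers 8 fell in Aged GMPs. The sums of all 15 were 547 and 579 CPM in Young and 457 and 493 CPM in Aged libraries. In both Aged ones, 6 of the 15, among them C1qa and Fcna, were without a count. Their part was not tested. There were 4 calls without Young GMP replicate 1 and 3 without Aged GMP replicate 2, with adjusted p up to 0.0352 for Tspo2, 0.0430 for Kel and 0.0635 for Cpox.

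In CLPs no listed gene rose and 5 fell, where 5.71% of all genes were higher and 4.73% were lower, with a median log2 difference of -0.19 against 0.00. Beside Alas2, Kel was at 0.394 and 0.616 CPM in Young and without a count in Aged CLPs, at least 2.36-fold lower. Car2 went from 117 and 124 CPM to 71.7 and 91.7 CPM (-0.55 ± 0.11). Slc25a37, the mitochondrial iron importer mitoferrin, fell by 0.61 and Fech by 0.28 on the log2 scale. In the edgeR fit of only the libraries compared, the calls of Alas2 (adjusted p 0.117), Slc25a37, Fech and Car2 were lost. All 9 basophil and mast cell markers fell in Aged CLPs. Their sums were 2295 and 2323 CPM in Young and 300 and 116 CPM in Aged libraries. Of the 15 macrophage markers 12 fell and 1 rose, with sums of all 15 at 425 and 460 CPM against 390 and 293 CPM. The marker that rose, Cd68, held up the sums, with means of 102 CPM in Young and 274 CPM in Aged CLPs. Among those that fell, Vcam1 and Slc40a1 were highest in Young CLPs. Their means went from 51.7 to 1.36 CPM and from 47.2 to 1.64 CPM. The part of such cells was not tested. There were 3 calls without Young CLP replicate 1 or Aged CLP replicate 1 and 2 without Young CLP replicate 2, with adjusted p up to 0.0111 for Alas2, 0.0333 for Kel, 0.0476 for Car2, 0.0889 for Slc25a37 and 0.0589 for Fech.

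HSCs and MPP1 held the fewest calls. In HSCs 2 genes rose and 1 fell, where 3.74% of all genes were higher and 1.66% were lower, with a median log2 difference of -0.06 against 0.02. Mt2 went from 0.355 and 0.633 CPM in Young to 11.4 and 15.5 CPM in Aged HSCs (4.75 ± 0.64, adjusted p 7.32e-05) in libraries that did not overlap. Its neighbour Mt1, from the list of other red cell and membrane genes, also rose (3.28 ± 0.14). Kel was without a count in Young and at 0.678 and 0.275 CPM in Aged HSCs, at least 2.00-fold higher, a call lost in 3 of 4 fits with a library left out (without Young HSC replicate 1 or 2 or Aged HSC replicate 1, adjusted p up to 0.0760). Gypc fell by 0.47 on the log2 scale. Of the 15 macrophage markers 4 fell in Aged HSCs and 5 in Aged MPP1. The sums of all 15 were 172 and 193 CPM in Young and 100 and 106 CPM in Aged HSCs. In MPP1 they were 142 and 153 CPM against 71.4 and 70.5 CPM. The part of these markers was not tested.

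In MPP1 no listed gene rose and 2 fell, where 4.71% of all genes were higher and 2.09% were lower, with a median log2 difference of -0.29 against -0.00. Rhag was at 5.49 and 4.59 CPM in Young and 0.616 and 1.58 CPM in Aged MPP1 (-2.12 ± 0.36, adjusted p 0.00047), a call lost without Aged MPP1 replicate 1 (adjusted p 0.0165). Slc25a38, the mitochondrial glycine carrier that feeds heme synthesis, fell by 0.48 and lost its call whichever library was left out (adjusted p up to 0.110). Each of the MPP1 libraries thus left 0 or 1 call when it was missing.

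Over the 8 age comparisons there were 256 tests of listed genes, with 8 higher (3.12%) and 49 lower calls (19.1%). Over the same comparisons, 7.01% of the tests of all genes gave a higher and 5.57% a lower call. A total of 22 genes fell and 5 (Alas1, Ppox, Tfrc, Mt2 and Kel) rose in at least 1 fraction, with Alas1, Tfrc and Kel in both counts. Alas2, Kel and Car2 fell in 4 fractions each. No call was made in any fraction for 8 genes, namely Hba-a2, the heme synthesis enzymes Alad, Uros and Urod, the iron transporter Slc11a2, the skeleton proteins Ank1 and Tmod1, and the blood group protein Icam4. Hba-a2 was counted here as fitted singly, while the sum of Hba-a1 and Hba-a2 fell in MPP2, MPP3, MPP4, GMPs and CLPs. At least 1 count in every library was found for 17 of the 32 genes, and 12 had at least 1 group in which neither library held a count.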

How the data were processed

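The authors aligned reads from a low-input template-switching kit (SMARTer Ultra Low Input) with TopHat2 2.0.13 and Bowtie2 2.1.0 to mm10 and took gene counts from StringTie with an iGenomes annotation. The deposited count table holds raw counts per gene and library. No use of strand and no molecular identifiers were stated, so overlapping genes and PCR copies were not separated. The authors also deposited counts normalized by DESeq2 and their own DESeq2 comparisons of Aged with Young cells (means, fold changes, statistics and p-values). Neither was used.

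Counts of all 32 libraries were fitted with edgeR 4.0.16 in R 4.3.3 (limma 3.58.1), with 1 mean for each of 16 groups, TMM normalization (factors 0.807 to 1.11) and filterByExpr (14154 genes kept, all 32 listed genes among them). The biological coefficient of variation was 0.113 with 16 residual degrees of freedom. The two-sided quasi-likelihood F-test was applied to 12 contrasts, with Benjamini-Hochberg adjustment over all genes within each. Genes with an adjusted p under 0.01 are called higher or lower. Errors of log2 differences are SE. Total counts had a median of 13489610. The test was tested on simulated data. Alternatives were an adjusted p of 0.05, DESeq2 1.42.0 size factors or Wald test, no filter, only the libraries compared, a replicate block, offsets for GC content and length, each library left out, and Hba-a1 and Hba-a2 summed.

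Values per library are given for genes called in an age comparison with a log2 difference of at least 1, for globins, Alas2 and Slc4a1, and for genes called in 4 or more age comparisons in 1 direction. Single values given for other listed genes (Tfrc, Alas1 and Ppox) were chosen after their values were seen. So were markers named for having no count and the macrophage markers named beside sums. Genes of the 8 further lists (erythroid regulators, other heme and iron genes, other red cell and membrane genes, and macrophage, megakaryocyte, granulocyte, basophil and mast cell, and B lineage markers) are given by counts with up to 4 examples of large differences. One example that this rule would name is not reported here. The listed genes and the lists were chosen with earlier results of these data known. Positions are from GENCODE M21 and promoter windows from RefSeq.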

Additional observations from a re-analysis of the deposited data

Results flagged for a closer look

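For 9 of the listed genes the age difference in MEPs differed from the mean age difference of the other 7 fractions, by a test of the difference itself (edgeR quasi-likelihood test, Benjamini-Hochberg adjusted). On the log2 scale the difference was 0.44 for Alas1 (adjusted p 0.000141), 0.57 for Ppox (0.00146), -1.06 for Tfrc (6.6e-05) and 0.32 for Slc11a2 (0.00895). It was 2.48 for Ermap (4.29e-05), 3.06 for Rhd (9.05e-06), 2.64 for Rhag (6.54e-05), 2.50 for Trim10 (0.000728) and 2.59 for Car1 (0.000891). The sizes for Ermap, Rhd, Rhag and Trim10 take in Aged groups without a count and depend on the prior count. DESeq2's Wald test did not call Car1 (adjusted p 0.0892). The edgeR call of Slc11a2 was lost with DESeq2 size factors and with no filter (adjusted p up to 0.0411). Slc11a2 lost its call in 30 of 32 fits with 1 library left out (adjusted p up to 0.129). Ppox lost it without Young MEP replicate 1 or Aged MEP replicate 2 (up to 0.0300), Ermap without Young GMP replicate 2 and Car1 without Young GMP replicate 1 (adjusted p 1 in both).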

How the results depend on the processing

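Of 95 calls of listed genes in the 12 contrasts, 55 held in all alternatives, 60 whichever library was left out and 65 in the others, and no direction turned. The number of calls moved by over 1.5 times as follows. At an adjusted p of 0.05 it was 13 in MPP4, 7 in MPP1, 11 in GMPs, 10 in CLPs, 8 in MEPs, 1 between Young MPP2 and MPP3, and 15 for the difference of MEPs from the other fractions. DESeq2's Wald test gave 5 in MPP1, 11 in MPP4, 9 in MEPs, 8 in CLPs, 2 between Young MPP2 and MPP3, and 14 for the MEP difference, and DESeq2 size factors gave 1 between Young MPP2 and MPP3. With only the libraries compared there was 1 in HSCs, 5 in MPP1, 4 in GMPs, 9 in MEPs, 1 in CLPs and 2 between Young MPP2 and MPP3. Offsets for GC content and length gave 4 in MPP1. With 1 library left out the calls ranged from 2 to 3 in HSCs, 7 to 10 in MPP2, 0 to 1 in MPP1, 2 to 5 in MPP4, 11 to 12 in MPP3, 2 to 4 in MEPs, 3 to 7 in GMPs and 2 to 4 in CLPs, from 28 to 29 between Young MEPs and GMPs, and from 7 to 11 for the MEP difference. The cause was not tested.

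Whether replicate numbers pair the libraries was not settled. Deviations of same-numbered Young and Aged libraries correlated at -0.33 (MPP1) to 0.43 (MPP3), and at over 0.1 in 4 of 8 fractions. With the replicate block there were 2 calls in HSCs, 11 in MPP2, 14 in MPP3, 6 in MEPs, 5 in MPP4, 2 in MPP1, 6 in GMPs and 3 in CLPs, and with the block and the GC and length offsets 4 in MPP1 and 7 in MEPs.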

Other observations

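Megakaryocyte markers moved apart from the listed genes in Aged CLPs. In CLPs 9 of the 12 markers rose and none fell (edgeR quasi-likelihood test, adjusted p under 0.01), with a median log2 difference of 3.84. There, 5 listed genes fell, and 5.71% of all genes were higher and 4.73% were lower. In HSCs 3 of the 12 markers rose, while 2 listed genes rose and 1 fell. Of all genes, 3.74% were higher and 1.66% were lower in Aged HSCs. Of the 12 granulocyte markers, 7 rose in Aged HSCs and 11 fell in Aged CLPs. B lineage markers were higher in Young MEPs than in Young GMPs for 7 of 10 genes and lower for 1. Of all genes, 22.6% were higher and 27.9% were lower in that comparison.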
